A study of Homo sapiens with 6 samples.

Results

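Transcripts of 9 transcription factors of squamous identity and differentiation were followed in CAL-27, a tongue squamous carcinoma line in long use. The factors are TP63, SOX2, TFAP2A, TFAP2C, GRHL1, GRHL2, GRHL3, OVOL1 and ZNF750. They were chosen by gene name, with earlier results of these data known, and make up 9 of the 22503 gene rows of the counts table. Cells received DMSO, the solvent, or DHA for 48 h, and each treatment was sequenced in 3 libraries. DHA was read as dihydroartemisinin, the active metabolite of the artemisinin antimalarials, because artemisinin derivatives are the subject of the series. No dose was stated in the sources at hand. No genotype or allele beyond that of the line is named in the labels, and nothing says that the libraries came from separate cultures. The p-values thus reflect only the spread among libraries, which may be of technical origin.

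Stratified epithelia such as the lining of the tongue are built from a basal layer that divides and from layers above it that differentiate. p63 holds the basal state and switches on keratins, integrins and desmosomal genes, and AP-2 factors act with it at epidermal genes. The grainyhead-like factors open epithelial enhancers, and OVOL1 and ZNF750 drive the exit toward terminal differentiation. SOX2 is a lineage factor of the oesophagus and tongue that is often gained together with TP63 on the long arm of chromosome 3 in squamous carcinomas.

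No member passed the test between DHA and DMSO, and 7 of the 9 had a negative log2 fold change. By the quasi-likelihood test of edgeR, adjusted after Benjamini and Hochberg, 0 of 9 were called, where 2.7% of all 14649 genes tested were called, 1.1% higher and 1.6% lower. At an unadjusted p under 0.05 the count was 7 of 9, against 20.3% of all genes tested. Limma-voom called 0 members and the DESeq2 Wald test called 3, all lower, namely SOX2, GRHL2 and ZNF750. Over all 14649 genes limma-voom called 365, 217 of them lower, and the DESeq2 Wald test called 1135, 682 of them lower. The edgeR test called 395, so the 3 calls come from a test that called far more genes. The 3 DHA libraries lay below the 3 DMSO libraries without overlap in 6 members, TP63, TFAP2A, TFAP2C, GRHL1, GRHL2 and ZNF750. Groups failed to overlap in 27.8% of all genes tested, with DHA higher in 14.3% and lower in 13.5%. No member lay wholly above DMSO. The median log2 fold change of the members was -0.45, and that of all genes tested was 0.003. In bulk RNA, fewer cells of a type and less RNA per cell cannot be told apart.

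**Figure D1:**
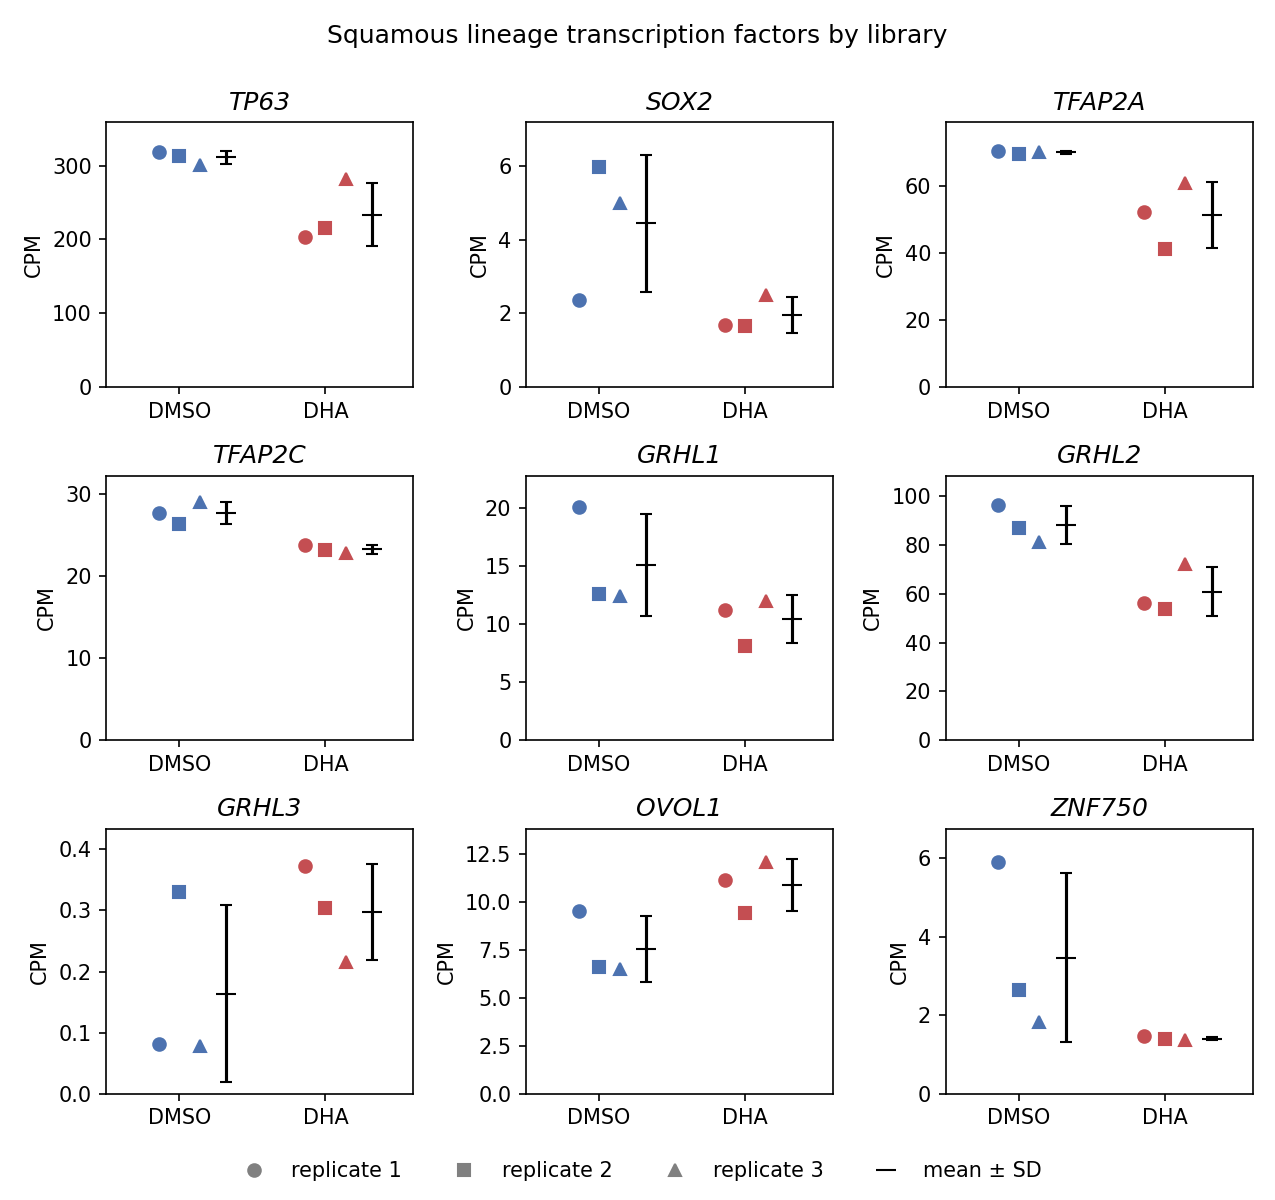
Level of each factor in CPM (scaled counts, each axis from 0) in the 3 DMSO and 3 DHA libraries, with marker shape giving the replicate number and bars the mean ± SD. TP63, TFAP2A, TFAP2C, GRHL1, GRHL2 and ZNF750 show no overlap between the groups, while DMSO 1 stands apart for SOX2, GRHL1 and ZNF750.

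The libraries held 35980670 to 38120267 counts over genes, and 3 counts corresponded to 0.0789 to 0.0830 CPM. CPM values are counts relative to a library total scaled by the trimmed mean of M values (TMM), and errors are SDs over n = 3 libraries. DMSO 1 stood apart from the other controls. The mean chi-square per gene was 78.2 between DMSO 1 and DMSO 2 and 81.7 between DMSO 1 and DMSO 3, but 6.61 between DMSO 2 and DMSO 3. Within DHA the widest pair was DHA 2 and DHA 3, at 123. All 12 squamous keratinocyte markers were tested, and their summed level ran from 5955 to 7934 CPM in DMSO and from 4936 to 6606 CPM in DHA. Their median log2 fold change was 0.05, and the 2 called, KRT6A and KRT6B, were higher in DHA. Without overlap between the groups, 4 of the 12, these 2 among them, were higher in DHA and 3, KRT5, DSC3 and KRT17, lower. KRT17 was at 2547, 1122 and 1106 CPM in DMSO and at 858, 785 and 507 CPM in DHA. It had a log2 fold change of -1.15 and was not called. KRT5, a basal keratin, was at 1674 to 2372 CPM over the 6 libraries. Of 10 leukocyte markers 6 were analysed here, summing to 52.4 to 61.8 CPM in DMSO and 46.3 to 58.8 CPM in DHA. Most of that was CD68 at 33.0 to 44.7 CPM, while LYZ was at 0 to 0.0276 CPM. Of the 4 tested, with a median log2 fold change of 0.03, only CD14 was called. It fell from 5.64 ± 0.912 to 2.20 ± 0.479 CPM (edgeR adjusted p = 0.0240). CSF1R, at 6.26 ± 2.94 and 8.78 ± 2.13 CPM, and ITGAM, at 4.52 ± 0.997 and 4.90 ± 1.79 CPM, did not fall with it (edgeR adjusted p = 0.399 and 0.835).

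Sequences upstream of the members were taken from RefSeq (GRCh38.p14) as windows of 300 bases, 250 before and 50 after a transcript start. Such windows were on hand for 5 of the 9 members in 7 entries. None was used for TFAP2C, GRHL2, OVOL1 and ZNF750. Motifs were searched on both strands. They were GCCNNNGGC for AP-2, AACCNGTT for grainyhead-like factors, ACAATG for SOX factors and, for the p53 family, a pair of CATG boxes with any 6 bases between them. Each was set against all 35116 windows of that length, of which 23.2% held the AP-2 motif, 1.73% the grainyhead-like motif, 10.8% the SOX motif and 0.373% the p53 family motif. The SOX2 window held 1 AP-2 match, one GRHL3 window held 1 AP-2 and 1 SOX match, and the other GRHL3 window held 1 SOX match. The windows of TP63, GRHL1 and TFAP2A held no match to any of the 4, which says only that these letters do not occur there. A match is a description of the letters and not a bound site. The 3 windows printed are those with an AP-2 match and, for contrast, that of TP63 at its upstream transcript start. They are written 5′ to 3′ in the direction of transcription, with matches in capitals.
SOX2, plus strand, chr3:181711675-181711974, with the AP-2 match in capitals: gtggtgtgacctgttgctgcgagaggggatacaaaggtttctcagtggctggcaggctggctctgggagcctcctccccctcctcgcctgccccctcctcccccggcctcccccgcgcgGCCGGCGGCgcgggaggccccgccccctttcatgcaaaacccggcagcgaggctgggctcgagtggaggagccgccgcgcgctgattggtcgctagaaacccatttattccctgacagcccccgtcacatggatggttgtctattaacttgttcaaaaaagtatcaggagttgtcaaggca
GRHL3, plus strand, chr1:24322790-24323089, with the SOX match first and the AP-2 match second: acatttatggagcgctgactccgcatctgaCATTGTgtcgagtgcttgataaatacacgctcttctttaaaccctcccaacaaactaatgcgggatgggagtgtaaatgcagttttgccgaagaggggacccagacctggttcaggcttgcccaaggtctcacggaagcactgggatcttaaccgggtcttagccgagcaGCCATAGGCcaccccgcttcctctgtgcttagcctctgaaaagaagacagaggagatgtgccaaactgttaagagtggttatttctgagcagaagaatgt
TP63, plus strand, chr3:189631139-189631438, with no match: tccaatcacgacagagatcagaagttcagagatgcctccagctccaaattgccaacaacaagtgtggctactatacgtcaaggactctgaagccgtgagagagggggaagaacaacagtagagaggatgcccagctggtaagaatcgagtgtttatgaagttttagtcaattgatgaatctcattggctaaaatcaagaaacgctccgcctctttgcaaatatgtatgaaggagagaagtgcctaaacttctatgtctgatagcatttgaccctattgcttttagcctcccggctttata

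TP63 encodes p63, the factor on which stratified epithelium depends. The gene lies on chromosome 3 at 189596746 to 189897276 (GRCh38.p14, plus strand). GENCODE 29 lists 14 TP63 transcripts, 6 of which start at 189631416 to 189631516 and 8 about 158 kb downstream at 189789660 to 189789801. The upstream start gives the full-length TA forms and the downstream start the ΔN forms that dominate in basal keratinocytes. Counts per gene add both, so these values cannot tell them apart. TP63 was at 319, 314 and 301 CPM in DMSO 1, 2 and 3 and at 203, 215 and 282 CPM in DHA 1, 2 and 3. The controls lay close together and all DHA libraries lay below them, with DHA 3 much nearer to the controls than the other two. Mean levels were 311 ± 8.85 and 233 ± 42.8 CPM. The log2 fold change was -0.42 ± 0.15 (SE), with a 95% interval of -0.74 to -0.09 (edgeR adjusted p = 0.162). Without DHA 3 it was -0.57 and passed the threshold (edgeR adjusted p = 0.0363).

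SOX2, an HMG-box factor of progenitor cells, lies on chromosome 3 at 181711925 to 181714436 on the plus strand. Its level was 2.38, 5.98 and 4.995 CPM in the DMSO libraries (88, 217 and 190 counts). In DHA it was 1.67, 1.66 and 2.51 CPM (63, 60 and 93 counts). DMSO 1 was lower than DHA 3, so the groups overlapped, while DMSO 2 and DMSO 3 were above every DHA library. The means were 4.45 ± 1.86 and 1.95 ± 0.487 CPM, a log2 fold change of -1.19 ± 0.35 (95% interval -1.98 to -0.40, edgeR adjusted p = 0.110). Without DMSO 1 the log2 fold change was -1.49 (edgeR adjusted p = 0.0418), and without DMSO 2 it was -0.92 (adjusted p = 0.300). SOX2 sits within the non-coding gene SOX2-OT on the same strand, with no shared exon, and SOX2-OT held 2 to 9 counts per library.

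The AP-2 factors TFAP2A and TFAP2C bind the same GC-rich motif and are made in basal epidermis. TFAP2A lies on chromosome 6 at 10396677 to 10419659 (minus strand) and TFAP2C on chromosome 20 at 56629306 to 56639283 (plus strand). TFAP2A was at 70.3, 69.5 and 70.2 CPM in DMSO and at 52.1, 41.1 and 60.7 CPM in DHA. Controls were nearly equal, and the DHA libraries were lower and widely spread, with DHA 2 lowest. The SD of 0.408 CPM among controls was smaller than the 1.37 CPM that counting error alone gives at this level, so it understates the spread. The log2 fold change was -0.45 ± 0.16 (95% interval -0.80 to -0.10, edgeR adjusted p = 0.156). Without DHA 3 it was -0.58 and passed (edgeR adjusted p = 0.0481). Exons of TFAP2A overlap the antisense genes TFAP2A-AS1 and TFAP2A-AS2. Whether counting used the strand is not stated, but these genes were low, at 0.939 ± 0.267 and 1.54 ± 0.167 CPM in DMSO.

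TFAP2C had the log2 fold change nearest to 0 of the 9. It was at 27.6, 26.3 and 28.97 CPM in DMSO and at 23.8, 23.2 and 22.8 CPM in DHA. Both groups were tight, and each DHA library lay below each control. The log2 fold change was -0.25 ± 0.13 (95% interval -0.54 to 0.04, edgeR adjusted p = 0.298). Per kilobase of exon, TFAP2C made up 52.0%, 51.0% and 53.2% of the sum of both AP-2 genes in the DMSO libraries and 55.7%, 60.9% and 50.8% in the DHA libraries. The split between the paralogs depends on the length used, since with the longest transcript in place of all exons TFAP2A was at 18.3 and TFAP2C at 9.64 CPM per kb in DMSO. The groups overlapped because DHA 3 lay below all controls (exact two-sided permutation p = 0.40, n = 3 per group, smallest possible 0.10, and 0.667 adjusted over the 4 shares tested).

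The grainyhead-like factors share a DNA motif. In the mouse, GRHL3 is needed for the skin barrier and neural tube closure and GRHL2 for epithelial junctions, while GRHL1 controls desmosomal genes. GRHL2 lies on chromosome 8 at 101492439 to 101681200, GRHL1 on chromosome 2 at 9951693 to 10002277 and GRHL3 on chromosome 1 at 24319357 to 24364482, all on the plus strand. GRHL2 was at 96.2, 86.8 and 81.0 CPM in DMSO and at 56.3, 53.7 and 72.2 CPM in DHA. DHA 3 was again the DHA library nearest to the controls. With means of 88.0 ± 7.65 and 60.7 ± 10.04 CPM, the log2 fold change was -0.53 ± 0.15 (95% interval -0.87 to -0.20). It had the lowest adjusted p of the 9 (0.0980 by edgeR), and without DHA 3 it passed with a log2 fold change of -0.67 (edgeR adjusted p = 0.0297). Exons of GRHL2 and OVOL1 also overlap antisense genes that were not analysed here.

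GRHL1 was at 20.2, 12.6 and 12.5 CPM in DMSO and at 11.3, 8.11 and 12.0 CPM in DHA. DMSO 1 stood far above all others, while DHA 3 was only slightly below DMSO 2 and DMSO 3. The log2 fold change of -0.53 ± 0.23 (edgeR adjusted p = 0.244) went to -0.26 without DMSO 1 (edgeR adjusted p = 0.513). GRHL3 was close to the limit of detection, with 3, 12 and 3 counts in DMSO and 14, 11 and 8 in DHA. It needed DHA libraries, where it is higher, to pass the filter, so its positive fold change adds no support. The sums were 18 and 33 counts, a ratio of 1.84 per scaled library total with an exact 95% interval of 1.01 to 3.47 that covers counting error only. Across libraries the groups overlapped, and the log2 fold change of 0.86 ± 0.63 had a 95% interval of -0.54 to 2.26 (edgeR adjusted p = 0.452). GRHL3 lies over STPG1 on the opposite strand, without a shared exon. STPG1 was itself higher in each DHA library, at 9.79 ± 0.586 and 11.9 ± 0.728 CPM (edgeR adjusted p = 0.313), and its part in the GRHL3 counts was not tested.

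Per kilobase of exon, GRHL2 made up 86.1%, 89.5% and 89.4% of the sum of the 3 grainyhead-like genes in DMSO and 86.0%, 89.0% and 88.4% in DHA. GRHL1 gave nearly all of the rest, with 13.8%, 9.94% and 10.5% in DMSO and 13.1%, 10.2% and 11.2% in DHA. GRHL3 stayed at 0.112% to 0.875% over the 6 libraries. None of these shares separated the groups (exact two-sided permutation p = 0.50 for GRHL2, 0.90 for GRHL1 and 0.20 for GRHL3, n = 3 per group, with 0.667, 0.90 and 0.667 adjusted over the 4 shares). The dominance of GRHL2 within the family was thus present in every library of both groups.

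OVOL1 and ZNF750 act late in the lineage. OVOL1 is a zinc finger repressor of mesenchymal and proliferative genes, and ZNF750 is a p63 target that represses progenitor genes and activates differentiation genes. OVOL1 lies on chromosome 11 at 65787063 to 65797214 (plus strand). It was at 9.51, 6.61 and 6.52 CPM in DMSO and at 11.2, 9.41 and 12.1 CPM in DHA. DMSO 1 was just above DHA 2, and the other controls were below every DHA library. Its means of 7.55 ± 1.70 and 10.9 ± 1.35 CPM gave a log2 fold change of 0.53 ± 0.20 (95% interval 0.07 to 0.98, edgeR adjusted p = 0.190). Without DMSO 1 it was 0.73 (edgeR adjusted p = 0.0973), and OVOL1 passed in no fit that left out a library. The antisense gene OVOL1-AS1 held 0 to 7 counts per library.

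ZNF750 lies on chromosome 17 at 82829434 to 82840022 (minus strand), inside TBCD on the other strand and without a shared exon. Its level was 5.89, 2.65 and 1.84 CPM in the DMSO libraries (218, 96 and 70 counts). In DHA it was 1.46, 1.38 and 1.38 CPM (55, 50 and 51 counts). The 3 DHA libraries were almost identical, with an SD of 0.0473 CPM where counting error alone gives 0.195 CPM, while DMSO 1 was far above the other controls. The log2 fold change was -1.30 ± 0.41 (95% interval -2.21 to -0.38, edgeR adjusted p = 0.125). Without DMSO 1 it was -0.67 (edgeR adjusted p = 0.269). TBCD was at 58.2 ± 2.49 and 59.8 ± 2.67 CPM (edgeR adjusted p = 0.875).

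**Figure D2:**
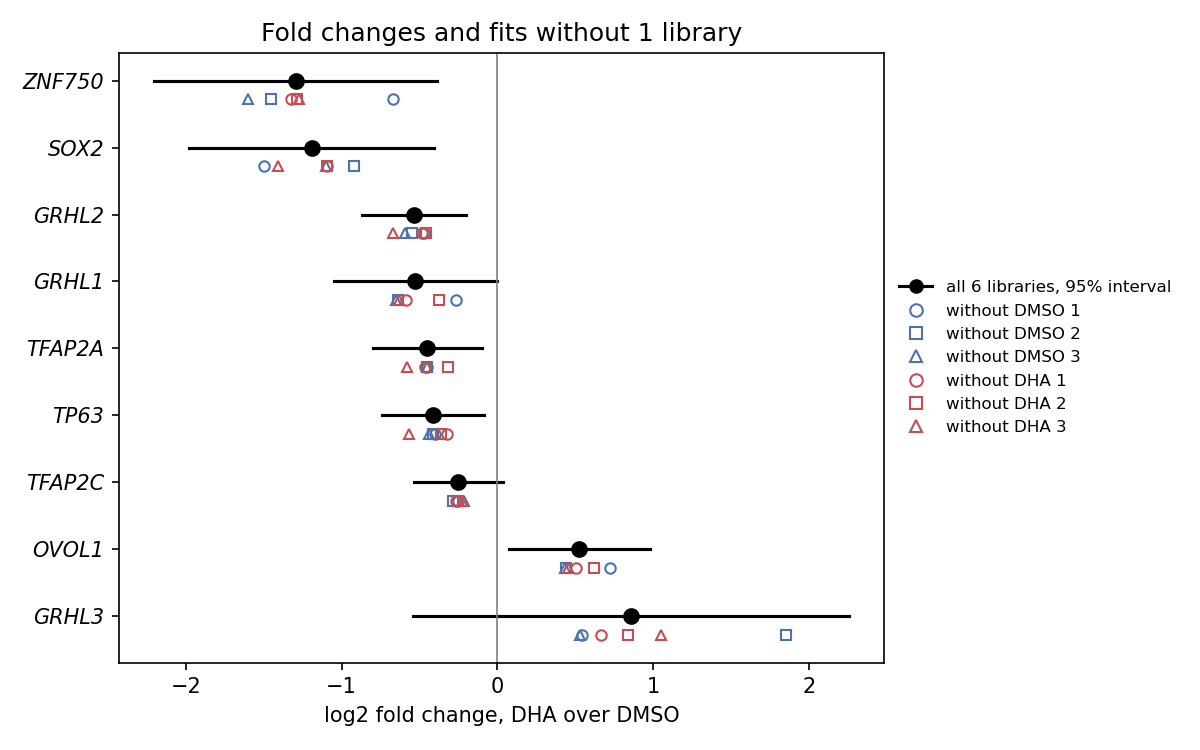
Log2 fold change of DHA over DMSO for each factor with all 6 libraries (black, 95% interval) and with each library left out in turn (open markers). The point without DMSO 1 lies nearest to 0 for ZNF750 and GRHL1, and the points without DHA 3 lie farthest from 0 for TP63, TFAP2A and GRHL2.

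TP63, TFAP2A and GRHL2 had like profiles. Relative to the mean of the controls their log2 values were -0.62, -0.43 and -0.65 in DHA 1, -0.53, -0.77 and -0.71 in DHA 2, and -0.14, -0.20 and -0.28 in DHA 3. DHA 3 was thus the DHA library nearest to the controls for each of the 3. SOX2, with -1.41, -1.42 and -0.83, and GRHL1, with -0.42, -0.90 and -0.33, also had DHA 3 nearest to the controls. TFAP2C and ZNF750 did not follow this order, and DHA 3 was farthest from the controls for both. Their SDs over the DHA libraries, 0.518 and 0.0473 CPM, were below the 0.793 and 0.195 CPM of counting error alone. The order of their DHA libraries was thus not resolved. TFAP2C had -0.22, -0.25 and -0.28, and ZNF750 had -1.24, -1.32 and -1.33, in DHA 1, 2 and 3. OVOL1 did not either, with 0.56, 0.32 and 0.68. The likeness of mean-centred log2 CPM over the 6 libraries was measured as a root mean square difference, which was 0.09 between TP63 and GRHL2. Of 12761 genes compared with TP63, GRHL2 ranked 21 and TFAP2A 179 (0.13), against a median of 0.34 over all of them. OVOL1 was at 0.52 from TP63 and at 1.01 from SOX2. SOX2 (0.53) and ZNF750 (0.60) were slightly farther from TP63 than OVOL1 was.

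By the same measure the genes nearest to TP63 were UACA (0.05), ZNF543 and ALDH5A1. Those nearest to SOX2 were CCN2 (0.14), POU4F1 and MIR4453HG, and those nearest to TFAP2A were HACD2 (0.03), CALD1 and UGGT2. RIC8B (0.02), PYGL and TRIM13 were nearest to TFAP2C. LYST (0.05), DSC3 and ERC1 were nearest to GRHL1, and ZNF236 (0.04), LSM11 and RAVER2 to GRHL2. For OVOL1 they were PRKG2 (0.06), TXNRD1 and GRB10, and for ZNF750 NOTCH3 (0.14), SCD and MEGF6. Of these 24 genes SCD alone was called (lower, edgeR adjusted p = 0.0472). The SCD call held without DMSO 1 and without DMSO 3 and was lost when any of the other 4 libraries was removed. It was also lost with unscaled totals (0.0502), at a minimum mean of 5 CPM (0.0607) and with limma-voom (0.0537).

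Levels were compared between genes per kilobase of exon. In DMSO, TP63 led with 41.8 ± 1.19 CPM per kb, followed by GRHL2 at 14.5 ± 1.26, TFAP2C at 9.19 ± 0.447 and TFAP2A at 8.46 ± 0.0493 CPM per kb. OVOL1 at 1.96 ± 0.442, GRHL1 at 1.90 ± 0.552 and SOX2 at 1.77 ± 0.741 CPM per kb did not differ beyond their spread. ZNF750 followed at 0.932 ± 0.578 and GRHL3 was last at 0.0415 ± 0.0367 CPM per kb. In DHA the order of the means was the same, with TP63 at 31.3 ± 5.75 and GRHL2 at 10.02 ± 1.66 CPM per kb. OVOL1, at 2.83 ± 0.351 CPM per kb, then lay above GRHL1 (1.32 ± 0.262) and SOX2 (0.775 ± 0.194) in every DHA library. With the longest transcript in place of all exons, TFAP2A (18.3 CPM per kb in DMSO) came above GRHL2 (16.8) and TFAP2C (9.64), so the order of these 3 depends on the length used. OVOL1 (2.49) then came below GRHL1 (2.79) in DMSO, so their order there depends on it too.

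**Figure D3:**
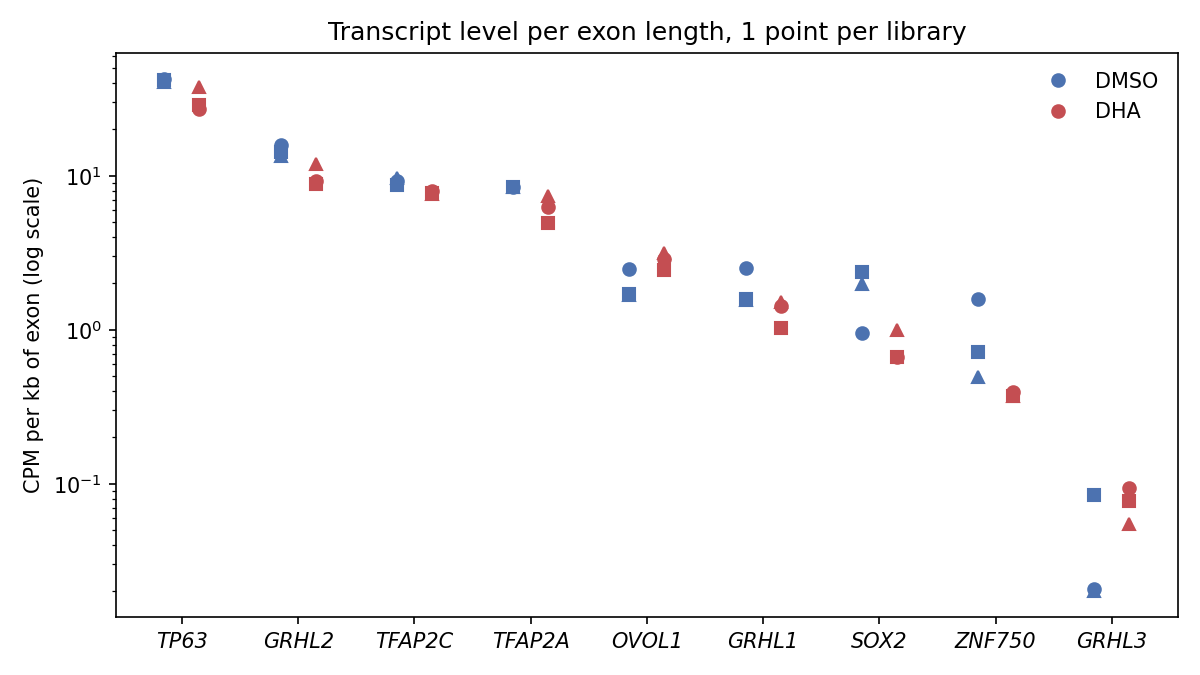
Level per kilobase of exon (CPM per kb, log axis) of the 9 factors, 1 point per library, ordered by the DMSO mean. TP63 leads at 41.8 CPM per kb in DMSO and GRHL3 is last at 0.0415 CPM per kb.

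The ratio of OVOL1 to another member within a library does not depend on library scaling. It was examined because OVOL1 had the opposite sign, so it was chosen after its values were seen. Per kilobase, OVOL1 and GRHL1 stood at ratios of 0.975, 1.08 and 1.08 in the DMSO libraries and 2.05, 2.40 and 2.07 in the DHA libraries. Both genes were high in DMSO 1, and their ratio there was close to that of the other controls. The height of these ratios, unlike their relative change between groups, depends on the exon length used. For TP63 the ratio was 0.0578, 0.0408 and 0.0419 in DMSO and 0.106, 0.0848 and 0.0827 in DHA. For ZNF750 it was 1.56, 2.41 and 3.42 in DMSO and 7.37, 6.56 and 8.46 in DHA. The DHA ratios lay above the DMSO ratios without overlap for 7 of the 8 other members, with GRHL3 the exception, and this held for 41.3% of all 14627 genes with counts in every library. Each of the 7 had an exact two-sided permutation p of 0.10 (n = 3 per group), the smallest this design allows. That p only restates the lack of overlap. It was not adjusted, the 7 ratios share OVOL1, and OVOL1 was chosen for its sign, so these p-values add no support.

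**Figure D4:**
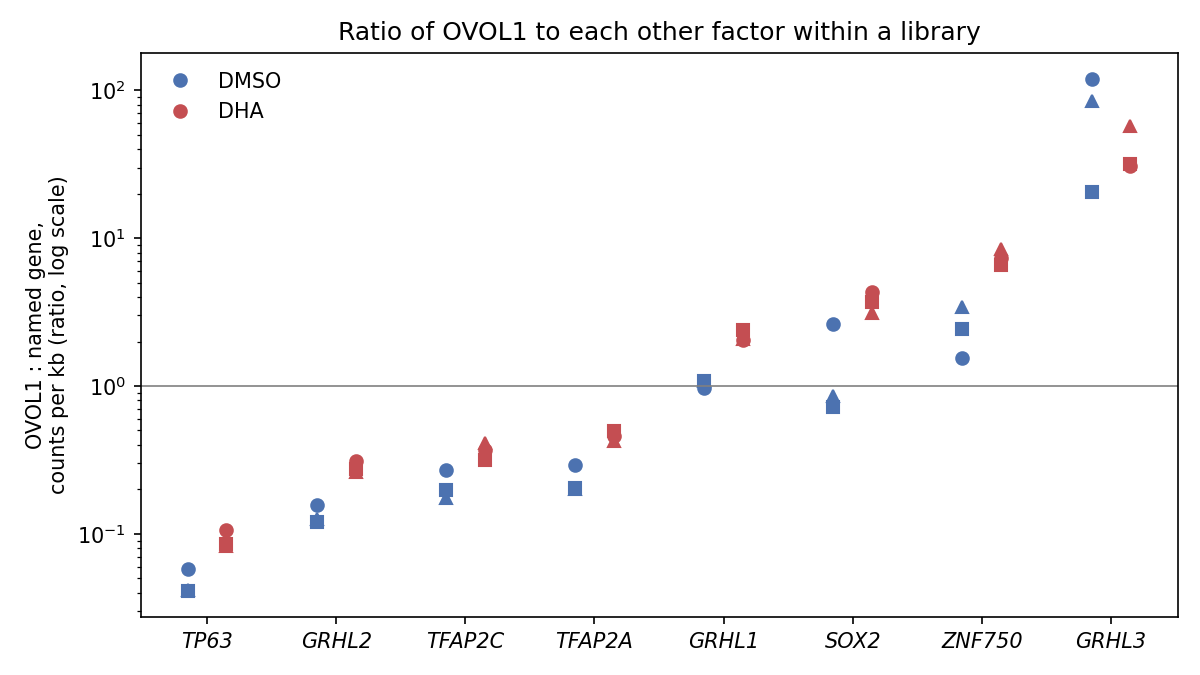
Ratio of OVOL1 to each other factor in counts per kilobase within a library (log axis, 1 point per library, gray line at a ratio of 1). For GRHL1 the DMSO libraries sit at 0.975 to 1.08 and the DHA libraries at 2.05 to 2.40.

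The other genes of the network were counted from lists set beside these factors. Basal targets of p63 were called in 6 of 30 tested members (20.0%, against 2.7% of all genes), 5 lower and 1 higher, with a median log2 fold change of -0.21. Those that fell were FGFR3, HAS3, TNS4, FGFR2 and FAT2. FGFR3, a fibroblast growth factor receptor, had 53.3 ± 5.995 CPM in DMSO and 26.6 ± 0.164 CPM in DHA (edgeR adjusted p = 0.0108). HAS3, a hyaluronan synthase, had 19.0 ± 3.10 and 9.73 ± 1.01 CPM (edgeR adjusted p = 0.0234), and TNS4, a focal adhesion adaptor, 103 ± 11.6 and 57.0 ± 1.59 CPM (edgeR adjusted p = 0.0159). FGFR3 and TNS4 lost the call without DMSO 2 or DHA 1, and HAS3 also without DMSO 1 or DHA 2. The 1 that rose was KRT6A, a keratin of wounded epithelium with near-identical paralogs, so that its counts are uncertain. The basal keratin KRT5 was at 2326 ± 66.5 and 1844 ± 158 CPM (edgeR adjusted p = 0.182) and its partner KRT14 at 67.5 ± 10.9 and 74.0 ± 15.2 CPM (edgeR adjusted p = 0.696). The count of 6 went to 0 without DMSO 2 or without DHA 1 and to 3 without DMSO 1, DMSO 3 or DHA 2.

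Of the other epidermal and squamous regulators, 2 of 28 tested were called (7.14%, against 2.7% of all genes). TP73, the paralog of TP63, fell by 1.44 on the log2 scale, with 33.0 ± 4.25 CPM in DMSO and 12.1 ± 1.91 CPM in DHA (edgeR adjusted p = 0.00763, and 0.0529 without DHA 1). KLF4, a differentiation factor of the upper layers, had 32.6 ± 5.27 CPM in DMSO and rose to 52.6 ± 2.67 CPM in DHA (edgeR adjusted p = 0.0431). The KLF4 call was lost with unscaled library totals (0.0542), at a minimum mean of 5 CPM (0.0537) and without DMSO 2, DMSO 3, DHA 1 or DHA 2 (0.0599 to 0.176). Keratinocyte differentiation targets were called in 3 of 22 (13.6%), all higher, with a median of -0.06. They were the small proline-rich genes SPRR1A, SPRR1B and SPRR2D, components of the cornified envelope. SPRR2D was at 0.108, 0.193 and 0.0789 CPM in DMSO and at 0.558, 0.858 and 0.810 CPM in DHA. It passed the filter only through the DHA libraries, so its call adds no support. SPRR1A, at 0.216 CPM in DMSO 1, also needed DHA libraries to pass the filter. SPRR1B rose from 1.15 ± 0.591 to 5.94 ± 0.914 CPM and SPRR1A from 0.360 ± 0.130 to 2.08 ± 0.250 CPM (edgeR adjusted p = 0.0159 and 0.0125). Members of this family are alike in sequence, so the division of reads is uncertain. The envelope enzyme gene TGM1 was at 1.43 ± 1.01 and 0.983 ± 0.319 CPM (edgeR adjusted p = 0.550), and involucrin (IVL), with at most 0.216 CPM in a library, was below the filter.

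Epithelial targets of the grainyhead-like factors were called in 1 of 28 (3.57%, near the 2.7% of all genes), the connexin gene GJB6, with 8.77 ± 1.85 CPM in DMSO and a lower 3.65 ± 0.501 CPM in DHA (edgeR adjusted p = 0.0211). Their median was -0.06. E-cadherin (CDH1) was at 445 ± 79.4 and 352 ± 34.6 CPM (edgeR adjusted p = 0.256). Mesenchymal genes, listed here as possible targets of repression by OVOL1 and GRHL2, were called in 2 of 17 (11.8%), both lower, with a median of -0.53. They were TGFB2, a growth factor at 17.3 ± 2.93 and 3.65 ± 2.06 CPM, and SPARC, a matrix protein at 442 ± 18.0 and 241 ± 22.6 CPM (edgeR adjusted p = 0.0159 and 0.0125). Repression of any listed gene by either factor was not tested. Fibroblast markers, 9 of 10 analysed here, summed to 13.7 to 23.5 CPM in DMSO and 9.18 to 13.2 CPM in DHA. Most of that was COL1A1 at 7.88 to 21.1 CPM, with COL1A2 next at 0.513 to 1.81 CPM over the 6 libraries. DCN, FAP and POSTN were at 0.0551 CPM or less in each library. The part of fibroblast RNA in the TGFB2 and SPARC values was not tested. VIM, which encodes vimentin, was at 0.440 ± 0.184 and 0.510 ± 0.311 CPM and ZEB1 at 1.48 ± 0.213 and 1.68 ± 0.546 CPM, both low in each group (adjusted p = 0.848 and 0.776 by edgeR). Genes of the chromosome 3 region that is gained with SOX2 and TP63 in squamous carcinomas were called in 1 of 20 (5.0%), with a median of -0.03. That gene was the ETS factor ETV5, with 31.4 ± 1.94 CPM in DMSO and a higher 58.8 ± 7.56 CPM in DHA (edgeR adjusted p = 0.0159). PIK3CA, which lies in the same region, was at 52.2 ± 5.83 and 45.3 ± 13.1 CPM (edgeR adjusted p = 0.583). Without DHA 1 each of these lists held 0 calls, as did the regulators and the differentiation targets. The 3 lists of this paragraph also held 0 without DMSO 2, and the grainyhead-like targets without DHA 2.

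**Figure D5:**
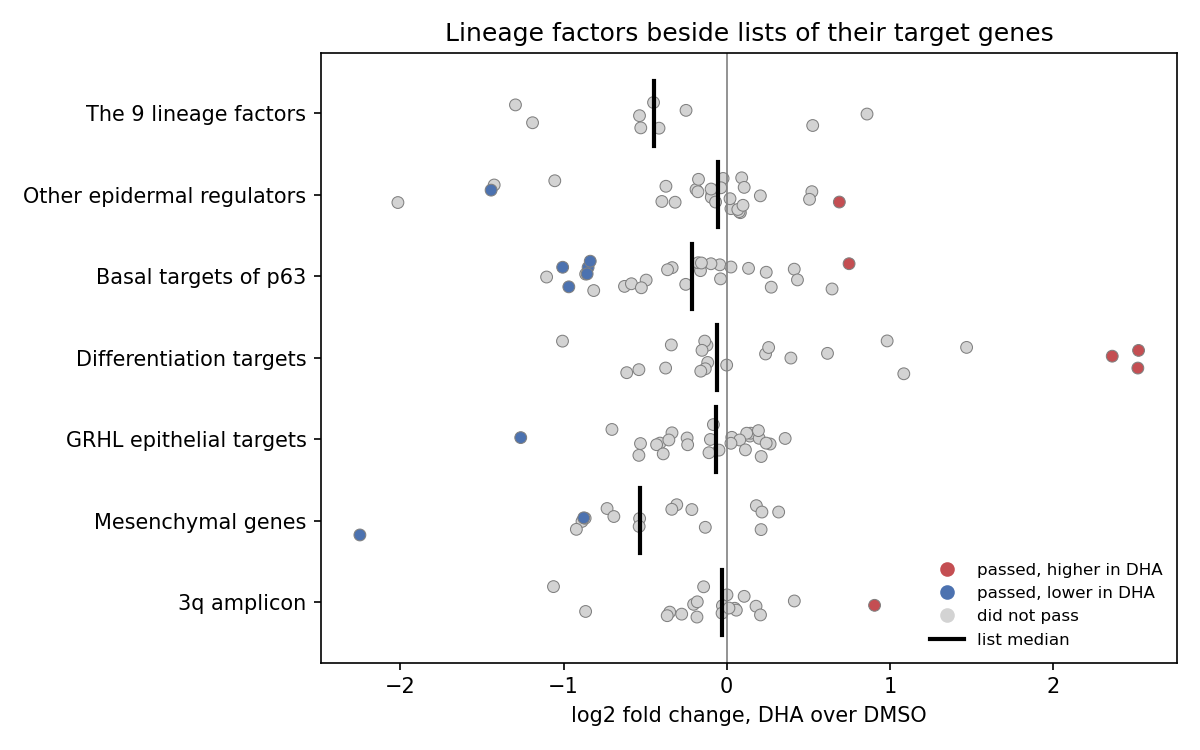
Log2 fold change of DHA over DMSO for the tested genes of each list, with genes that passed coloured and list medians as black lines. The median is -0.45 for the 9 lineage factors, with no gene passing, and -0.21 for the basal targets of p63, with 5 lower and 1 higher.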

How the data were processed

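RNA was measured in 6 libraries of CAL-27 cells, 3 with DMSO and 3 with DHA, as grouped by the treatment labels. The authors deposited raw counts of reads for each gene. Per the submitters' processing notes, the build was GRCh38 and the tools were fastp, HISAT2, HTSeq and R 3.2.0. Settings, annotation release and strand use are not stated. Counting that leaves out ambiguous reads could lower paralogs and overlapping genes.

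Genes were kept by filterByExpr (minimum count 10), which left 14649 of 22503, all 9 members among them. Counts were scaled by TMM and tested with edgeR (4.0.16, quasi-likelihood F test, two-sided, treatment as factor), with Benjamini-Hochberg adjustment across the 14649 genes and 0.05 as threshold. The SE came from the fold change and the root of F, and intervals applied the fit's degrees of freedom. Alternatives used DESeq2 (1.42.0) and limma (3.58.1), other scalings and filters, a replicate block and each library left out. The fit was also run on simulated counts with known changes. Libraries there were drawn alike, with none apart as DMSO 1 is here, and no result was taken from that run. Lengths and overlaps came from GENCODE 29, coordinates and windows from RefSeq (GRCh38.p14). Likeness used log2 CPM with a prior count of 2, among genes with a mean of at least 1 CPM.

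Named genes were the 9 members, up to 3 called genes per list with a mean of at least 1 CPM, the 3 genes nearest to each member and annotated genes overlapping one. FGFR2, FAT2, KRT5, KRT14, KRT6A, KRT6B, SPRR2D, CD14, TGM1, IVL, CDH1, VIM, ZEB1, PIK3CA, CD68 and LYZ were added after their values were seen. So were KRT17, CSF1R, ITGAM, COL1A1, COL1A2, DCN, FAP and POSTN. Members and lists were chosen with earlier results of these data known.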

Additional observations from a re-analysis of the deposited data

How the results depend on the processing

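The count of members called was 0 in the fit reported, and also with DESeq2 size factors, upper-quartile scaling, unscaled totals, a minimum mean of 5 CPM (6 members tested) and limma-voom. It was 1 with no filter (SOX2, edgeR adjusted p = 0.0475), 3 in the DESeq2 Wald test and 3 with the replicate block (SOX2, GRHL2 and ZNF750 each), and 0 to 3 with 1 library left out, all lower. Over all genes, 395 calls of 14649 tested became 649 of 22503 with no filter and 252 of 10639 at a minimum mean of 5 CPM. The share called thus moved little with the filter. Of 14649 genes, 1272 were called with the replicate block and 1135 in the DESeq2 Wald test. With 1 library left out the count was 16 to 789. The cause was not tested. The labels name no pairing by replicate number, so the fit reported has no block. Deviations of same-numbered libraries correlated at 0.43, 0.21 and -0.01 for numbers 1, 2 and 3. The highest correlations with another number were -0.00, 0.01 and 0.17. Numbers 1 and 2 thus correlated best with their own and number 3 did not, so pairing was neither established nor excluded. No member changed sign in any fit. With 1 library left out, the change in the GRHL1 share ranged from -0.67 to 1.32 percentage points, with -0.59 and -0.32 without DMSO 2 and DMSO 3, and that in the GRHL2 share from -1.67 to 0.33, with 0.0286 without DMSO 2, both crossing 0. The log2 fold change of TFAP2A-AS1 ranged from -0.21 to 0.20. At a minimum mean of 5 CPM, 9 differentiation targets were tested and the SPRR genes called before were no longer among them. Depth limits GRHL3 most, with 3 to 14 counts per library.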

Other observations

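The deposited table marks 589 genes with a transcription factor family, 541 of which were tested. Of these, 12 were called, 8 higher and 4 lower (2.22%, against 2.7% of all genes tested). Those named were chosen after their values were seen. The lower genes included TP73, ZSCAN31 and SREBF1, a regulator of fatty acid synthesis, which went from 206 ± 16.9 to 96.0 ± 12.0 CPM (SD, n = 3, edgeR adjusted p = 0.00950). The higher genes were FOSL1, ATF3, ETV5, ATF5, RBCK1, ARNTL, KLF4 and XBP1. ARNTL, a core clock factor, went from 12.5 ± 1.21 to 20.6 ± 1.90 CPM (edgeR adjusted p = 0.0390).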
